A study of Mus musculus with 6 samples.

Results

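The cyclic nucleotide phosphodiesterases of the PDE3, PDE4, PDE7, PDE8 and PDE10 groups were followed in sorted mouse embryo cells, gene by gene and probe set by probe set. Of the 10 genes on the list, 9 had a probe set that the platform annotation assigns to that gene alone, and Pde4c was skipped for want of such a probe set. The 9 genes were read by 29 probe sets, among 34945 single-gene probe sets for 18193 genes on the array. Pde4b and Pde8a had already been seen to pass the test between mutant and wild-type cells when this family was chosen, so the differences between the groups are given as a description of the members and support nothing further.

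The mutant samples were 3 arrays of cells from embryos that carried Isl1-cre, Rosa-YFP and a Beta-catenin (loxP ex3) allele, which yields a stable β-catenin, the activator of canonical Wnt target genes, once Cre has acted. They were set against 3 arrays of cells labelled wild type. All 6 samples were YFP+ cells sorted at embryonic day 9.0 and labelled as cardiac progenitors, with total RNA amplified before hybridisation. The labels list alleles for the mutants alone, do not say how many embryos gave a sample, and Cre driven by Isl1 also marks descendants of Isl1-expressing cells outside the heart. P-values therefore measure the spread between these samples, which may be technical in part. Sex-linked genes, given below, differed within each group, so the arrays of a group were not all from the same embryos.

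Phosphodiesterases end cyclic nucleotide signals by hydrolysing cAMP, cGMP or both to the plain nucleotide. Adenylyl cyclases make cAMP when a receptor activates the stimulatory G protein, cAMP then acts on protein kinase A, Epac exchange factors and ion channels, and phosphodiesterases held near these effectors decide how far and how long the signal reaches. In heart muscle, PDE3 and PDE4 enzymes are known as the main brakes on cAMP downstream of β-adrenergic receptors.

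Values are log2 expression as deposited. The level called background, 4.85, is that below which 95% of the 27 bacterial control probe sets had their means. Probe sets differ in how well they bind, so mutant and wild-type levels were compared within each probe set. Probe sets were set against each other only to choose 1 for each gene, and against background. Averages over probe sets or over the genes of a list were also compared between arrays. Array correlations across genes ran from 0.985 to 0.987 within mutant, from 0.986 to 0.989 within wild type and from 0.979 to 0.987 between the groups, and on the first principal component mutant array 1 lay at 1.21, between mutant arrays 2 and 3 (33.0 and 29.4) and the wild-type arrays (from −21.6 to −20.5). Markers of the labelled cell type were read against background. Of 11 second heart field progenitor genes, Nkx2-5 alone had a mean at or below background, and all 10 cardiomyocyte genes lay above it. This cannot check the label, because most genes on the array averaged above background, all but 4067 of 18193. All 12 neuronal, 12 endothelial and 9 primitive erythroid markers also averaged above it, while 2 of 10 leukocyte markers did not. In these bulk samples, fewer cells of a type and less RNA per cell cannot be told apart.

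RefSeq sequence before the transcription start is shown for the 2 members that stood apart between the groups. The RefSeq table of starts (build GRCm38.p6) held 7 of the 10 genes, all but Pde3a, Pde3b and Pde7a. Each line gives the 250 bases before a start, 5′ to 3′ on the plus strand. Capitals mark the letters of 4 searches on both strands: the full CREB site TGACGTCA, its short form TGACG, the HIF core ACGTG or GCGTG, and the TCF/LEF core CTTTGAA or CTTTGAT.
Pde8a, chr7:81213015-81213264: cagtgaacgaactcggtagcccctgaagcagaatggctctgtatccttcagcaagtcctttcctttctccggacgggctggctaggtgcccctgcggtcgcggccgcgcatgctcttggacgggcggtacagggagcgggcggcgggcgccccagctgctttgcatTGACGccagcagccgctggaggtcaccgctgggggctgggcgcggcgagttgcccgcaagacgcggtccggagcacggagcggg
Pde4b, chr4:102421305-102421554: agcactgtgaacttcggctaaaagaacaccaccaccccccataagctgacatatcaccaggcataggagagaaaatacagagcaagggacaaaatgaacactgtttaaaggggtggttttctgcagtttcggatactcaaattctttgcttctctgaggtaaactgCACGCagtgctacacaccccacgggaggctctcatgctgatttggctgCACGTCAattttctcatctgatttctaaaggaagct

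The Pde8a window held a short CREB site 84 bases before the start and none of the other motifs. The Pde4b window held 2 HIF cores, 84 and 36 bases before the start, and a short CREB site 34 bases before it that overlaps the nearer HIF core. The windows before the other 3 Pde4b starts in the table held none of the motifs. Members whose groups overlapped had such motifs too. HIF cores lay before starts of Pde4a, Pde4d, Pde8b and Pde10a. A short CREB site lay before a Pde4a start, and TCF/LEF cores before starts of Pde4a and Pde4d. Over all 32851 windows of this length in the table, 17.8% held the short CREB site, 38.6% the HIF core, 7.5% the TCF/LEF core and 1.5% the full CREB site. A match is a string of letters and not a shown binding site. Which Pde4b start each probe set reads is not known here.

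Pde4b, a cAMP-specific enzyme of the PDE4 group known from immune cells and brain, was higher on every mutant array. Its probe set with the highest mean, 1422473_at, read 7.41, 7.65 and 7.97 on mutant arrays 1, 2 and 3, against 5.61, 5.63 and 5.97 on wild-type arrays 1, 2 and 3. The groups did not overlap, and every array of both groups lay above background. The means were 7.68 ± 0.28 in mutant and 5.74 ± 0.20 in wild-type cells (SD, n = 3 each), a difference of 1.94 on the log2 scale with SE 0.18 and a 95% interval from 1.51 to 2.36, which is 3.83-fold.

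Pde8a, a cAMP-specific enzyme of the PDE8 group with a high affinity for cAMP and no sensitivity to the common inhibitor IBMX, was the other member that stood higher. Probe set 1418406_at read 7.52, 7.42 and 7.46 on mutant arrays 1, 2 and 3, against 6.49, 6.32 and 6.18 on the wild-type arrays. Here mutant array 1 was the highest of the 6, while for Pde4b it was the lowest mutant array. The means were 7.47 ± 0.05 in mutant and 6.33 ± 0.16 in wild-type cells (SD, n = 3 each), a difference of 1.14 with SE 0.13 and a 95% interval from 0.84 to 1.44, or 2.21-fold.

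In the gene-level fit with limma and Benjamini-Hochberg adjustment over all 18193 genes, these 2 of the 9 members had an adjusted p under 0.05, both higher in mutant cells (0.0371 for Pde4b and 0.0489 for Pde8a), and 0 members were lower. Over all genes the same rule called 0.066% higher and 0% lower, and nothing is read from the members' count because the same contrast drew attention to them. At an unadjusted p under 0.05 the count was also 2 higher and 0 lower, against 6.76% of all genes higher and 4.84% lower. Groups did not overlap for 2 members, both higher, against 8.64% of all genes higher and 9.18% lower. The count of 2 fell to 0 without mutant array 2 or 3 and without wild-type array 1, 2 or 3, and stayed at 2 without mutant array 1. Leaving out an array moved the differences only from 1.79 to 2.07 for Pde4b and from 1.07 to 1.22 for Pde8a.

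**Figure D1:**
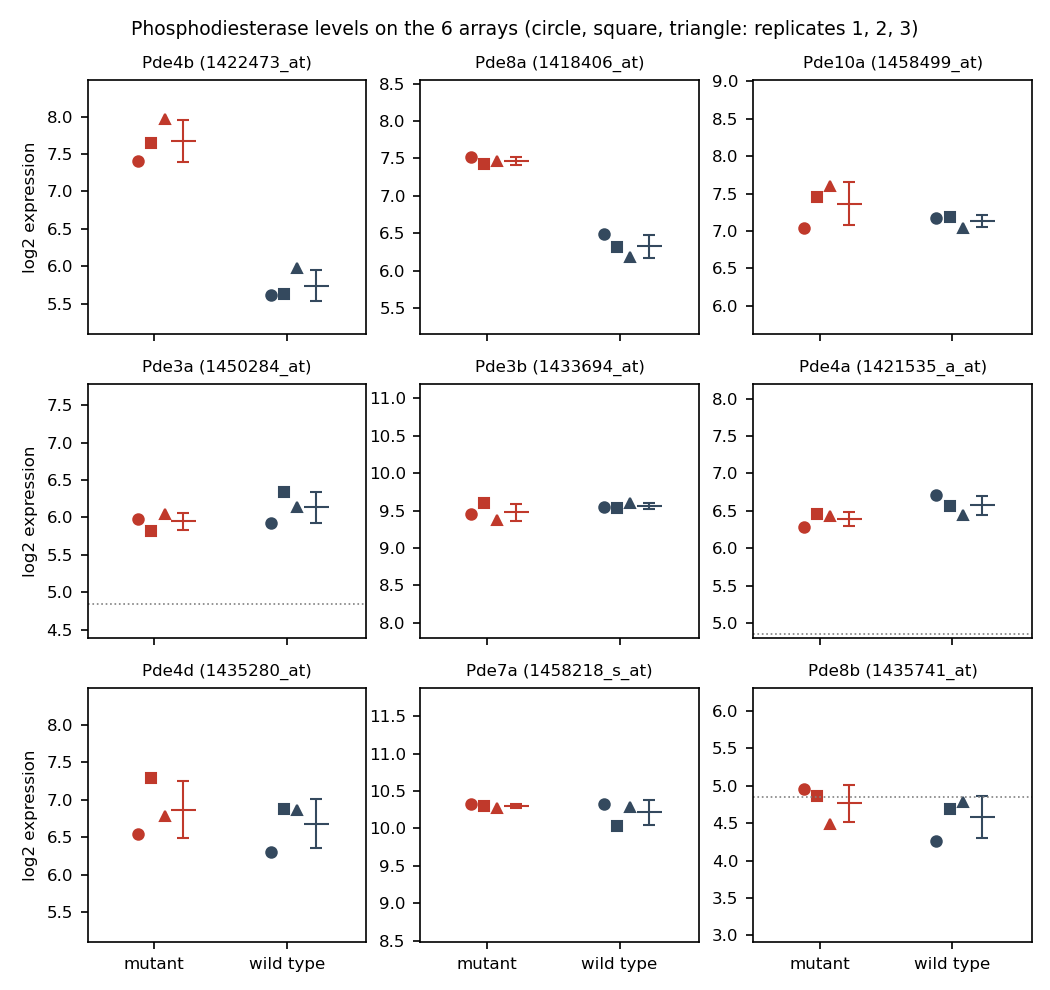
Log2 expression of the 9 phosphodiesterases, each by its probe set with the highest mean. Each panel shows the 3 mutant arrays left and the 3 wild-type arrays right, with a bar and whiskers for mean ± SD (n = 3). All panels span the same log2 height, and the dotted line marks background where it falls inside a panel. The groups stand apart for Pde4b and Pde8a and overlap for the other members.

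The other PDE4 genes that were measured, Pde4a and Pde4d, did not share the difference of Pde4b. Pde4a, a cAMP-specific enzyme found in many tissues, read 6.28, 6.46 and 6.43 on the mutant arrays and 6.71, 6.56 and 6.45 on the wild-type arrays. The values overlapped narrowly, mutant array 2 lying just above wild-type array 3, and the difference was −0.18 with a 95% interval from −0.48 to 0.12. Pde4d, which in heart muscle is bound to β2-adrenergic receptor and ryanodine receptor complexes, read 6.54, 7.29 and 6.78 on the mutant arrays and 6.30, 6.88 and 6.87 on the wild-type arrays. Its difference was 0.19 with an interval from −0.38 to 0.75, so this gene was the least tightly measured.

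Among the PDE3 genes, Pde3b, the enzyme through which insulin lowers cAMP in fat cells, was the most even. It read 9.46, 9.60 and 9.38 on the mutant arrays and 9.55, 9.53 and 9.61 on the wild-type arrays, a difference of −0.08 with an interval from −0.36 to 0.20. Pde3a, the form of heart muscle, vascular smooth muscle and oocytes, read 5.98, 5.82 and 6.04 on the mutant arrays and 5.93, 6.35 and 6.14 on the wild-type arrays. Neither PDE3 gene separated the groups, and the interval for Pde3a ran from −0.54 to 0.16 around a difference of −0.19.

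Pde7a, a cAMP-specific enzyme known from T cells and skeletal muscle, read 10.32, 10.31 and 10.27 on the mutant arrays and 10.32, 10.03 and 10.29 on the wild-type arrays. All but wild-type array 2 lay within a narrow band, and the difference was 0.09 with an interval from −0.22 to 0.39. Pde8b, the other PDE8 gene and known from thyroid and adrenal, read 4.95, 4.86 and 4.48 on the mutant arrays and 4.26, 4.69 and 4.78 on the wild-type arrays. Only mutant arrays 1 and 2 lay above background for this probe set, so Pde8b has no firm level in these cells and there is no firm signal behind its difference of 0.18 (95% interval from −0.26 to 0.63). Pde10a, which hydrolyses cAMP and cGMP and is best known from striatal neurons, read 7.04, 7.45 and 7.60 on the mutant arrays and 7.18, 7.19 and 7.05 on the wild-type arrays. Mutant arrays 2 and 3 lay above all wild-type arrays and mutant array 1 lay below them, for a difference of 0.23 with an interval from −0.16 to 0.61.

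Across the 9 genes, differences ran from −0.19 to 1.94 with a median of 0.18 and 6 of the 9 had higher values in mutant cells, against a median of −0.03 and 8136 of 18193 over all genes. The median is the value of Pde8b's 1435741_at, whose mean lay below background. Its other probe set, 1437989_at, gave −0.08. Only the mutant means, 4.76 against 4.50, made 1435741_at the brighter one, for the wild-type means were 4.58 and 4.59. Nothing is read from this median or this count. The spread between arrays of a group differed among members. The residual SD was lowest for Pde3b, 0.08, at the 7.04th percentile of all genes, and highest for Pde4d, 0.36, at the 84.6th percentile. Pde8a, at 0.12, was among the steady members and Pde4b, at 0.24, lay at the 63.5th percentile. At the chosen probe sets, the 7 members that did not pass had intervals that reached at most 0.75 upward, and the interval for Pde8a began at 0.84. The same differences made the split into passed and not passed, so this gap is a description. It did not hold at other probe sets, where the interval of Pde10a's 1439618_at reached 1.96 and that of Pde8a's 1418407_at began at 0.17.

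The probe sets of a member often disagreed. Pde4b had 6 probe sets, with differences from −0.15 to 2.22. Probe set 1422474_at read 7.41, 8.04 and 8.0 on the mutant arrays and 5.05, 5.47 and 6.26 on the wild-type arrays, a difference of 2.22 with SE 0.32. Probe set 1442700_at read 6.25, 7.02 and 7.53 on the mutant arrays and 5.90, 5.06 and 5.79 on the wild-type arrays, a difference of 1.35 with SE 0.35. In both, as in 1422473_at, the groups did not overlap and all 6 arrays lay above background.

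The remaining 3 Pde4b probe sets showed no such difference, and all of them were dim. Probe set 1446577_at read 5.22, 3.82 and 4.17 on the mutant arrays and 4.55, 4.42 and 4.70 on the wild-type arrays, with mutant array 1 alone above background. Probe sets 1444731_at and 1447718_at stayed below background on every array, with differences of −0.15 and 0.10. The 3 Pde4b probe sets above background thus gave 1.35 to 2.22 and the 3 dim ones −0.15 to 0.10. The mean of all 6 gave a Pde4b difference of 0.89.

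**Figure D2:**
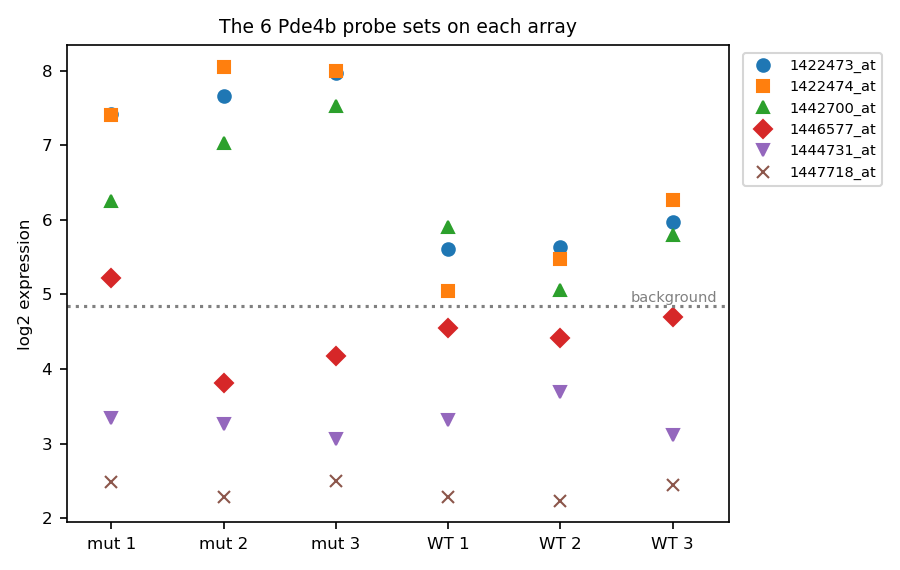
Log2 expression of the 6 Pde4b probe sets on mutant arrays 1 to 3 (left) and wild-type arrays 1 to 3 (right), a marker for each probe set. Probe sets 1422473_at, 1422474_at and 1442700_at read above the dotted background level of 4.85 on all arrays and higher on every mutant array. The 3 others lie near or below background in both groups.

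Both Pde8a probe sets stood higher in mutant cells. Probe set 1418407_at read 5.98, 7.06 and 6.29 on the mutant arrays and 5.84, 5.47 and 5.62 on the wild-type arrays. The groups did not overlap, though mutant array 1 lay close to wild-type array 1, and the difference was 0.80 with SE 0.27. It was 0.49 without mutant array 2 and 1.03 without mutant array 1.

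Pde10a had 5 probe sets, all with higher values in mutant cells, from 0.08 to 1.15. The value of 1.15 came from 1439618_at, which read 4.24, 4.42 and 5.45 on the mutant arrays and 3.34, 4.06 and 3.28 on the wild-type arrays. The groups did not overlap, but mutant array 3 alone lay above background, and without it the difference was 0.77. The 3 Pde10a probe sets with means above background gave 0.17, 0.23 and 0.26, each with overlapping groups.

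Pde3a had 3 probe sets that went both ways, at −0.19, 0.25 and 0.47. The last, 1431914_at, read 3.14, 2.95 and 3.08 on the mutant arrays and 2.53, 2.66 and 2.58 on the wild-type arrays, below background throughout, so that its groups stood apart at a level with no firm signal. The 7 Pde7a probe sets were all above background and gave 0.02 to 0.26, with overlapping groups in each. The 2 probe sets of Pde4d gave 0.19 and −0.10 and those of Pde8b 0.18 and −0.08, and the lower one of Pde4d and both of Pde8b had a mean below background.

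Of all 29 member probe sets, 20 had a mean above background and 9 at or below it. Of all 34945 single-gene probe sets, 7937 had a mean at or below it. In the probe set fit, adjusted over all 34945 single-gene probe sets with limma, 1 member probe set passed, 1422473_at of Pde4b (adjusted p = 0.0401), where 0.0229% of all probe sets passed as higher and 0% as lower. Pde8a's 1418406_at did not pass there (adjusted p = 0.0705), nor did 1422474_at (0.111) or 1442700_at (0.265) of Pde4b. Groups did not overlap for 7 member probe sets, all higher and 2 of them with means below background, against 8.45% of all probe sets higher and 9.04% lower. The same 7 had an unadjusted p under 0.05 and 0 were lower, where 6.51% of all probe sets were higher and 4.91% lower. This count, too, is a description.

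**Figure D3:**
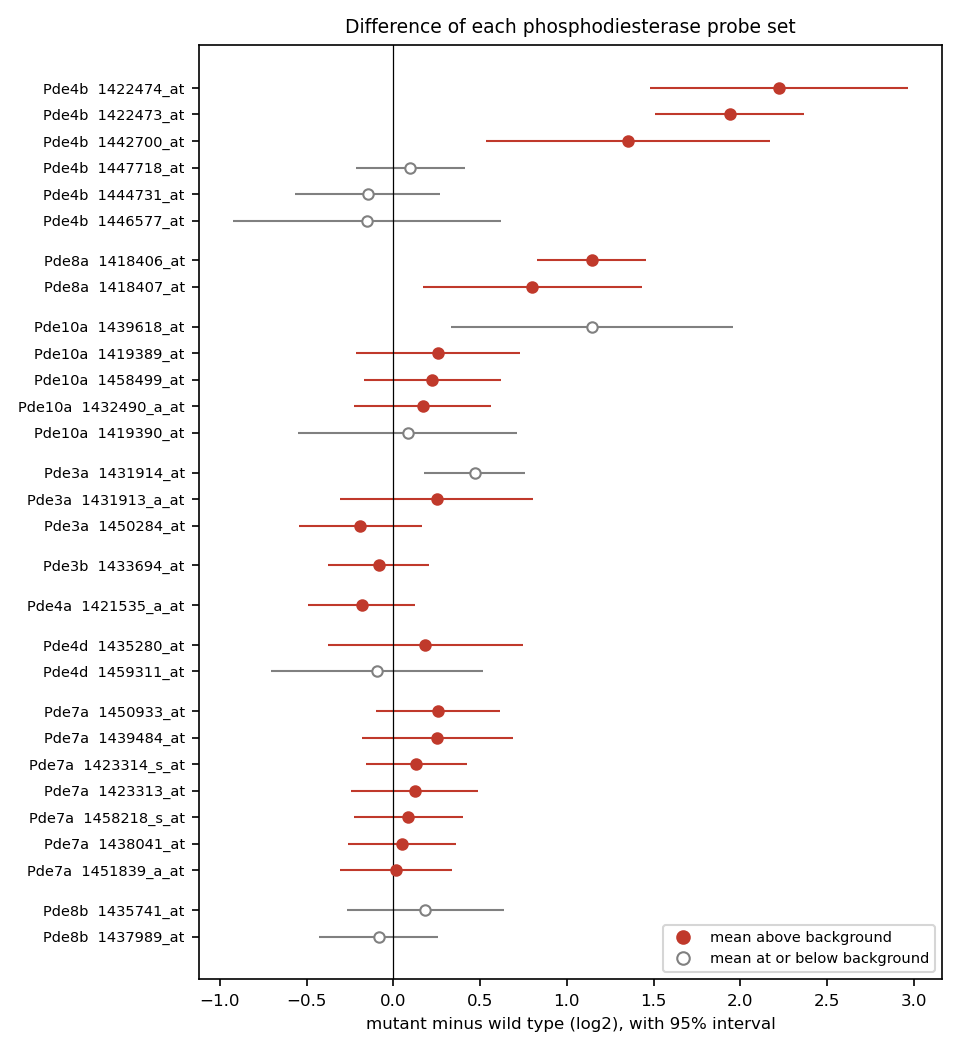
Log2 difference, mutant minus wild type, for each of the 29 probe sets, grouped by gene, with 95% intervals from the limma fit (3 mutant and 3 wild-type arrays). Filled points have a mean above background and open points a mean at or below it. The filled points whose interval leaves out 0 are the 3 brighter Pde4b and both Pde8a probe sets.

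The rest of the cyclic nucleotide pathway was read through lists of genes that are not members: other phosphodiesterases, cyclases, G proteins, receptors, effectors, anchors, CREB factors and targets. Of 120 genes listed, 105 were measured, and 0 passed in either direction in the gene-level limma fit, where 0.066% of all genes passed as higher. Before adjustment, p was under 0.05 for 4 pathway genes with higher and 7 with lower values, against 6.76% and 4.84% of all genes. The median difference was −0.04, close to the −0.03 of all genes.

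Of 14 other phosphodiesterases, 3 had higher and 11 lower values, with a median of −0.14, and none passed. Pde9a, a cGMP-specific enzyme, read 4.90, 5.12 and 4.69 on the mutant arrays and 5.38, 5.80 and 6.15 on the wild-type arrays. The groups did not overlap, the difference was −0.87 with SE 0.22 (adjusted p = 0.232, limma), and mutant array 3 lay below background. Pde2a, an enzyme stimulated by cGMP and known from endothelium, read 8.36, 8.40 and 8.76 on the mutant arrays and 8.0, 8.24 and 7.40 on the wild-type arrays, a difference of 0.63 (adjusted p = 0.381, limma). Groups of this list did not overlap for 1 gene with higher values, Pde2a, and for 4 with lower values, Pde9a, Pde6h, Pde11a and Pde5a, against 8.64% and 9.18% of all genes. Pde7b, the second PDE7 gene, stood at −0.10 with overlapping groups.

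Enzymes that make cyclic nucleotides showed smaller differences. Of 10 adenylyl cyclases, 4 had higher and 6 lower values, and the median was −0.03. Adcy6, a cyclase of heart muscle inhibited by calcium, stood at 0.32 (SE 0.17) and Adcy2 at 0.37 (SE 0.22). Of 9 guanylyl cyclases and natriuretic peptide receptors measured, 4 had a mean at or below background, among them Gucy1b1, the β subunit of the nitric oxide receptor, at 0.43 (SE 0.34), and Gucy2e at −0.22 (SE 0.20).

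Among 6 G protein α subunits of the pathway, Gnai1, an inhibitory subunit that lowers adenylyl cyclase activity, had the smallest p of all pathway genes. It read 9.24, 9.36 and 9.21 on the mutant arrays and 8.74, 8.78 and 8.57 on the wild-type arrays. The groups did not overlap, and the difference of 0.58 (SE 0.12) did not pass (adjusted p = 0.199, limma). Gnaz stood at 0.31 (SE 0.21). Of 15 cAMP-coupled receptors measured, 8 had a mean at or below background, and the receptors for vasoactive intestinal peptide Vipr2 and Vipr1 stood at −0.68 (SE 0.18) and −0.26 (SE 0.14), Vipr2 below background on all arrays.

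Downstream, 16 effectors were split evenly, with 8 higher and 8 lower values. Prkar2b, a regulatory subunit of protein kinase A, read 8.67, 8.55 and 9.05 on the mutant arrays and 9.58, 9.08 and 9.16 on the wild-type arrays, a difference of −0.52 (adjusted p = 0.384, limma), and the channel gene Hcn3 stood at −0.41 (adjusted p = 0.336, limma). For both the groups did not overlap. Among 16 anchors and partners, Akap7, an anchor of protein kinase A, stood at 0.70 (SE 0.18) and Akap6, the anchor of the heart muscle nuclear envelope, at −0.70 (SE 0.23).

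Of 7 CREB factors and coactivators 6 had higher values, with a median of 0.09. Crem, whose short forms repress cAMP-responsive genes, read 6.75, 7.05 and 6.34 on the mutant arrays and 6.39, 6.13 and 5.87 on the wild-type arrays, and mutant array 3 lay below wild-type array 1. Crebbp stood at −0.14 (SE 0.12). The 12 measured cAMP response element targets had a median of −0.03, with 5 higher and 7 lower values. In this list Rgs2, a regulator of G protein signalling, stood at −0.48 (SE 0.22) and Fosb, below background on all arrays, at −0.55 (SE 0.30), and none of the 12 had p under 0.05 before adjustment.

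**Figure D4:**
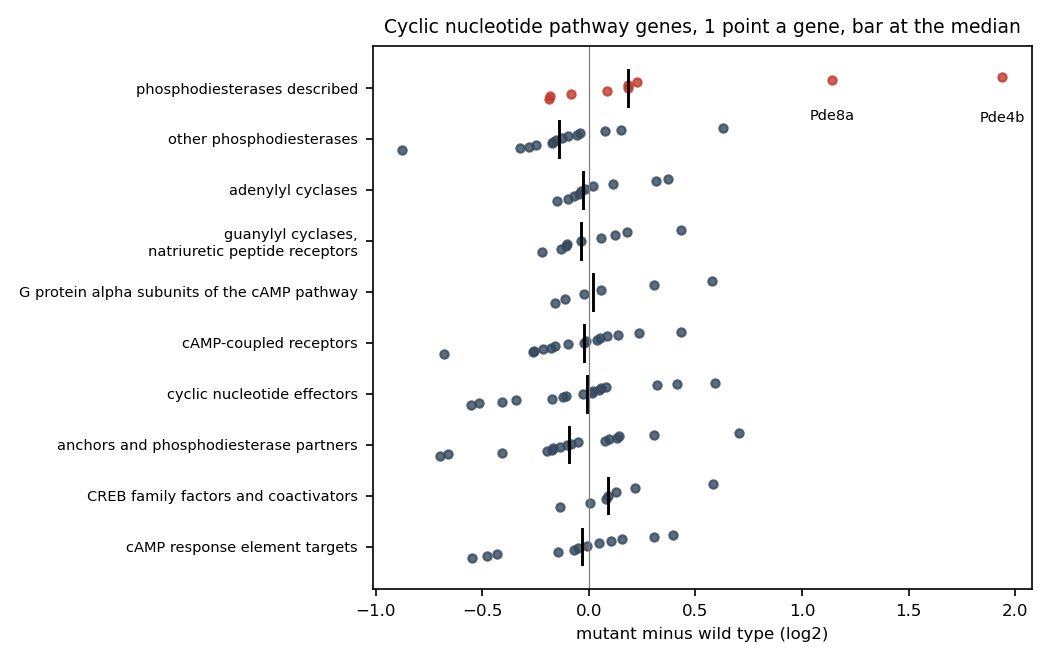
Log2 difference, mutant minus wild type, for the 9 phosphodiesterases described (red, top) and for the measured genes of 9 lists of the cyclic nucleotide pathway (blue), 1 point a gene by its probe set with the highest mean, with a black bar at each median. List medians lie between −0.14 and 0.09. Pde4b at 1.94 and Pde8a at 1.14 lie beyond every pathway gene, of which Akap7 at 0.70 is the highest. The family was chosen with these 2 known to pass this contrast, so their place beyond the pathway genes is a description only.

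Several lists stood higher on the same arrays as Pde4b and Pde8a. Genes of the response to low oxygen and glycolysis had higher values for 18 of 18 measured, 3 of which passed (Pfkp, Adm and Ndrg1), and their mean level ran from 10.65 to 11.23 on mutant and from 9.76 to 9.91 on wild-type arrays. Canonical Wnt targets had higher values for 11 of 12, with Apcdd1 passing, and mean levels of 8.27 to 8.53 on mutant and 7.57 to 7.67 on wild-type arrays. Over all genes, 8136 of 18193 had higher values and 0.066% passed as higher. Both lists were chosen with earlier results of these data known, so their counts are a description. Relative to the wild-type mean, the low oxygen list stood at 0.80, 1.38 and 1.35 on mutant arrays 1, 2 and 3. Canonical Wnt targets stood at 0.64, 0.90 and 0.83. Endothelial genes stood at 0.66, 1.02 and 0.95 and surface ectoderm genes at 0.42, 0.67 and 1.30. These lists were thus all lowest on mutant array 1, while neural crest genes, at 0.56, 0.32 and 0.74, were lowest on mutant array 2. Among the mutant arrays, array 1 was lowest for Pde4b as well and for Pde8a's 1418407_at, and highest for Pde8a's 1418406_at. The part of these responses in the phosphodiesterase values was not tested.

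Markers of other cell types were uneven too. Endothelial genes had higher values for 12 of 12, with mean levels of 7.98 to 8.34 on mutant and 6.89 to 7.65 on wild-type arrays. Surface ectoderm genes had higher values for 10 of 10, at 8.99 to 9.86 on mutant and 8.23 to 8.85 on wild-type arrays, and neural crest genes for 6 of 8, at 8.58 to 9.003 on mutant and 8.13 to 8.45 on wild-type arrays. No marker of these 3 lists lay at or below background on all arrays, and none passed. Their part in the Pde4b and Pde8a differences was not tested. Leukocyte markers, of interest because Pde4b is known from immune cells, had lower values for 8 of 10, at 5.45 to 6.05 on mutant and 5.85 to 6.15 on wild-type arrays, none passing. Of these 10, Ptprc and Adgre1 were at or below background on all arrays, while the other 8 had means above it. Among the 8 was Laptm5, at 9.29 ± 0.50 in mutant and 9.70 ± 0.10 in wild-type cells (SD, n = 3 each). Neuronal genes had lower values for 10 of 12, at 7.38 to 8.57 on mutant and 8.10 to 9.07 on wild-type arrays. Values were lower for 9 of 9 primitive erythroid, 8 of 10 cardiomyocyte, 6 of 8 visceral endoderm, 5 of 8 foregut endoderm and 6 of 11 second heart field progenitor genes, where 10057 of all 18193 genes had lower values, and none of these markers passed.

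**Figure D5:**
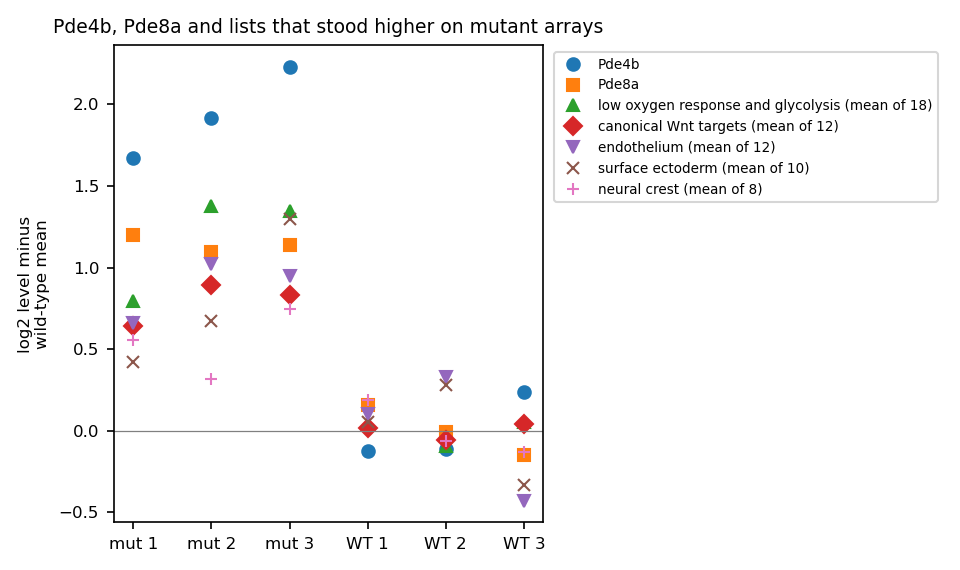
Log2 level minus the wild-type mean for Pde4b (1422473_at), Pde8a (1418406_at) and the means of 5 gene lists on mutant arrays 1 to 3 (left) and wild-type arrays 1 to 3 (right), a marker for each gene or list. On mutant array 1 the low oxygen list stands at 0.80 against 1.38 and 1.35 on mutant arrays 2 and 3. The Wnt, endothelial and surface ectoderm lists are also lowest on mutant array 1 among the mutant arrays, and the neural crest list on mutant array 2. Pde8a's 1418406_at is about even over the 3 mutant arrays, and its 1418407_at, not plotted, was lowest on mutant array 1.

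The sex of the embryos was uneven between groups. Kdm5d, a gene of the Y chromosome, had 8.67, 9.92 and 9.08 on mutant arrays 1 to 3, against 9.84, 2.82 and 3.52 on wild-type arrays 1 to 3. Xist, the RNA that silences an X chromosome in female cells, had 12.13, 7.54 and 12.44 on the mutant arrays, against 5.46, 12.63 and 12.79 on the wild-type arrays. Mutant arrays 1 and 3 thus carried high Xist and Y-linked signal together, and no wild-type array did. With Y-linked signal as a covariate in limma, the differences were 2.02 for Pde4b (adjusted p = 0.173, range over all alternatives from 0.0163 to 0.179) and 1.02 for Pde8a (adjusted p = 0.256, range from 0.032 to 0.256), so neither passed. The part of embryo sex in the differences was not tested beyond this. The gap between 3′ and 5′ control probe sets of Gapdh, a sign of RNA length, was 1.35, 1.38 and 1.04 on the mutant arrays and 1.53, 1.09 and 1.12 on the wild-type arrays, overlapping between the groups.

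The genes whose profile over the 6 arrays was most like that of Pde4b, among 14125 genes with a mean above background, were App, the amyloid precursor protein (Pearson r = 0.995), Herpud1, a protein of the endoplasmic reticulum stress response (0.992), and Igfbp3, which binds insulin-like growth factors (0.991). For Pde8a they were Bckdhb, a subunit of branched-chain ketoacid dehydrogenase (0.995), Ctnna2, an α-catenin of neurons (0.994), and Wdr34, a dynein intermediate chain (0.992). These r values describe the likeness over 6 arrays that share the split into groups, so that a large part of each is the difference between the groups. The differences themselves were 0.46 for App, 0.68 for Herpud1, 1.61 for Igfbp3, 0.29 for Bckdhb, 1.03 for Ctnna2 and 0.65 for Wdr34, and Igfbp3 alone of the 6 passed (adjusted p = 0.0371, limma).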

How the data were processed

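Sorted mouse embryo cells were measured on 6 Affymetrix arrays, 3 mutant and 3 wild type. The deposited log2 values, 1 per probe set and array, were used without further scaling; how the authors corrected, summarised and normalized them is not given in the sources used here. They ran from 1.89 to 15.07 with array medians of 6.47 to 6.50 and nearly equal distributions, so a shift of most genes one way may have been removed before deposit. Gene names came from the platform annotation held by GEO and were brought up to date through gene identifiers (34741 of 34945 single-gene probe sets matched RefSeq). A gene was read by its probe set of highest mean over the 6 arrays.

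Groups were compared with limma 3.58.1 (R 4.3.3), by a two-sided moderated test from lmFit and eBayes with no term but the group, on 18193 genes and separately on 34945 probe sets, with Benjamini-Hochberg adjustment over each and 0.05 as the threshold. The adjusted p-values are those of these fits, whose code was tested on simulated data. The number of arrays limits the precision, and the smallest p that exact permutation of 3 against 3 allows is 0.1. The members and lists were chosen with earlier results of these data known. All members and probe sets are named, with the 2 genes of smallest p in each list, those that passed, and the 3 genes most like Pde4b and Pde8a; Pde7b, Laptm5, Xist, Kdm5d, the groups that did not overlap and markers at background were picked with their values in view. The alternatives were a replicate block, quantile normalization, centring, a filter on low means, another prior, array weights, other probe set choices, a stricter threshold, leaving out each array and, added later, a Y-linked covariate.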

Additional observations from a re-analysis of the deposited data

How the results depend on the processing

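The 2 member genes that passed became 1 with quantile normalization, with arrays centred on their medians and with a trended and robust prior, and 0 at a threshold of 0.01, with the probe set of largest variance, with the mean of all probe sets and with Y-linked signal as a covariate. The count ran from 0 to 2 over the arrays left out in turn. The 1 member probe set that passed became 2 without the 40% of lowest means, 0 at a threshold of 0.01 and 0 with the Y-linked covariate, and ran from 0 to 1 with an array left out. With replicate number as a block, 0 member genes and 0 member probe sets passed, and 0 of all genes and 1 of all probe sets. Deviations of same-numbered arrays correlated at 0.108, −0.0751 and −0.0161, and 1 of 3 mutant arrays correlated best with its own number, so the numbers were not taken as pairs. 

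Over all genes the 12 calls, all higher, became 6 with centring and 1 with either other choice of probe set. They became 0 at the stricter threshold and 0 with the Y-linked covariate. Higher calls ran from 0 to 81 with an array left out. The 8 calls over all probe sets, all higher, became 14, 15 and 13 higher calls with the filter, the trended prior and array weights. They became 0 at the stricter threshold and with the Y-linked covariate, and 0 to 89 with an array left out. Lower calls were 11 genes and 11 probe sets without mutant array 1, and 1 probe set with the trended prior. Pathway genes passed under none of the 17 settings. 

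Pde4b stayed between 0.89 and 2.22 and Pde8a between 0.97 and 1.22 under every alternative run. Members near 0 changed sign: Pde3a stood at 0.25 with the probe set of largest variance, 0.18 with the mean of probe sets and 0.0028 with the Y-linked covariate. Pde4d stood at −0.10 with the probe set of largest variance and from −0.0238 to 0.35 with an array left out, and Pde7a at −0.0125 with the Y-linked covariate and from −0.0082 to 0.14 with an array left out. The cause of these changes was not tested.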
